A study of Mus musculus with 2 samples.

Results

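Metallothionein and zinc transport genes were measured in whole mouse liver at embryonic day 15.5. The set held 10 of the 43346 genes in the deposited tables, chosen by symbol and found through their gene identifiers. It comprised the metallothioneins Mt1, Mt2 and Mt3, the metal-sensing transcription factor Mtf1, the exporters Slc30a1 and Slc30a10, and the importers Slc39a4, Slc39a8, Slc39a10 and Slc39a14. The tissue came from untreated B6NCrl embryos of mixed sex, and the study had a single group with 2 biological replicates. Replicate 1 pooled the livers of 78 embryos and replicate 2 those of 62 embryos. The input was 10 ng of RNA longer than 200 nt per library, with synthetic spike-in RNAs. There was no treated, mutant or control group, so levels were compared between genes and between the 2 libraries, with no test of a condition.

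Metallothioneins are small cysteine-rich proteins that bind zinc and copper in the cytosol, and their genes are induced by metals and by glucocorticoids. MTF-1, the product of Mtf1, is a zinc finger protein that binds metal response elements in the promoters of Mt1, Mt2 and Slc30a1 when zinc is plentiful. ZIP proteins (SLC39 family) move zinc into the cytosol from outside the cell or from organelles, and most ZnT proteins (SLC30 family) move it the other way.

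The promoters of the metallothioneins and of both exporters are shown because MTF-1 is known to act through short elements near the starts of its target genes. The sequences are from RefSeq on GRCm38.p6, all on the plus strand, from 250 bases before the annotated start to 30 bases after it. Capitals mark matches to TGCACNC or TGCGCNC, forms of the metal response element core, on either strand. The stretches are Mt1 at chr8:94178839-94179118, Mt2 at chr8:94172368-94172647, Slc30a1 at chr1:191906531-191906810 and Slc30a10 at chr1:185454598-185454877.
Mt1: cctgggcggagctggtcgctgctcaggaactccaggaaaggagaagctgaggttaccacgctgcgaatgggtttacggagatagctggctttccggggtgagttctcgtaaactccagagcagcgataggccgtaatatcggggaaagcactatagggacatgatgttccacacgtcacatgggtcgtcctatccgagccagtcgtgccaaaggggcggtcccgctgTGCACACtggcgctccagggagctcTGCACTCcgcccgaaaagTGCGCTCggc
Mt2: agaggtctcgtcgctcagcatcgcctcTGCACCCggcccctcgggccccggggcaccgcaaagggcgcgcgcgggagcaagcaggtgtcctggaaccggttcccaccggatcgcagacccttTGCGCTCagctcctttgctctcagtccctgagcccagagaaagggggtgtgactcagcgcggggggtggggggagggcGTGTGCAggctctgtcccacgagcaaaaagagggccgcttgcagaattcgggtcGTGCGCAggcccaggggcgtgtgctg
Slc30a1: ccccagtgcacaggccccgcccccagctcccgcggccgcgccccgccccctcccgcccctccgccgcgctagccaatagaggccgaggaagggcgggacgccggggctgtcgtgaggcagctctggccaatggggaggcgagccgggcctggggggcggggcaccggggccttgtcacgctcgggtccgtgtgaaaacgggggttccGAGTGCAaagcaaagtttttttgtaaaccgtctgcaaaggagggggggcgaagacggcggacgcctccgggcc
Slc30a10: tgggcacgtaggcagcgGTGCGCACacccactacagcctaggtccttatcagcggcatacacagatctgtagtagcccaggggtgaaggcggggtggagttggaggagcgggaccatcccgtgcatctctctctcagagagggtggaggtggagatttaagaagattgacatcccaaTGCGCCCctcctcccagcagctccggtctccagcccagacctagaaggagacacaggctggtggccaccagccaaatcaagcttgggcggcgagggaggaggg

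Matches were counted in windows from 250 bases before to 50 bases after each start, with overlapping matches counted separately. RefSeq windows were found for 8 of the 10 members. They have 10 windows in all, since Slc39a8 and Slc39a10 have 2 each, and 6 of the 10 held at least 1 match, against 25.7% of all 32851 promoter windows. Mt2 had 4 matches, at positions -223, -128, -50 and 5 from the start, and 0.517% of all windows held 4 or more. Mt2 kept 2 matches with TGCGCNC alone and 2 in a window that began 100 bases before the start. Mt1 had 3, at -23, 3 and 21, and 1.97% of all windows held 3 or more. With TGCGCNC alone Mt1 had 1. Slc30a10, a manganese exporter, also had 3 matches, of which those at -233 and -232 overlap on opposite strands and share most of their bases. In the window that began 100 bases before the start, Slc30a10 had 1. Slc30a1, which encodes the plasma membrane zinc exporter ZnT1, had 2 matches, at -43 and 31, and 7.11% of all windows held 2 or more. The match at 31 lies beyond the printed stretch. Mt3, the brain form of metallothionein, had 1 match. Slc39a8 had 1 match in the second of its windows and 0 in the first. Mtf1 and Slc39a10 had 0. A match describes these letters only. The windows of all promoters were not matched for base content, and MTF-1 was already known to bind the promoters of Mt1, Mt2 and Slc30a1. The shares are therefore no test of enrichment. The windows end before the letters TATAAA in the annotated leaders of Mt1 and Mt2, which begin at bases 122 and 136 from the RefSeq starts. Between the window and TATAAA, the Mt1 leader holds 2 further matches and the Mt2 leader 3, so the counts above depend on where the start is annotated.

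**Figure D1:**
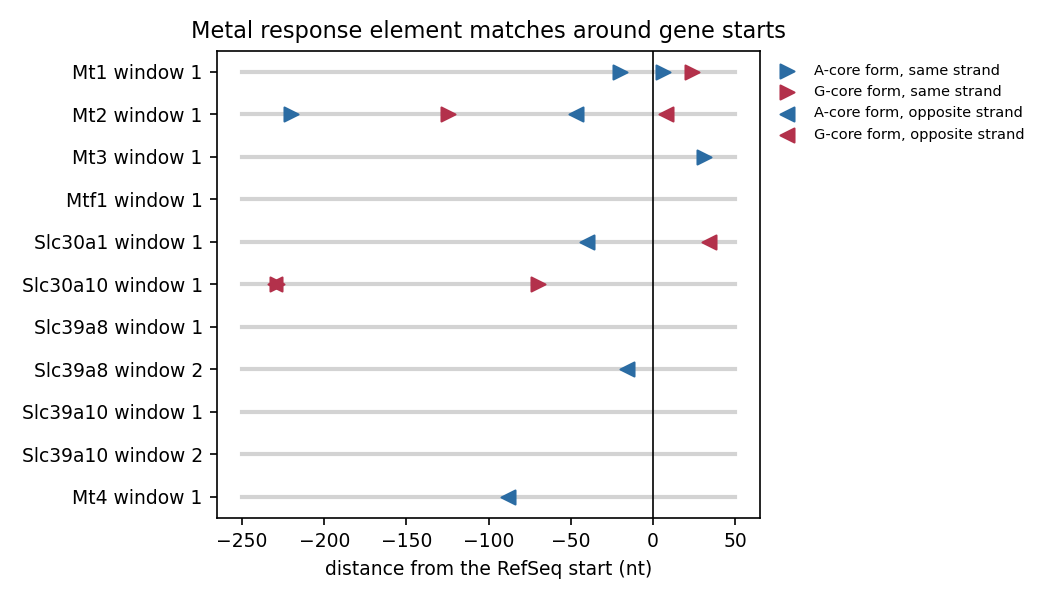
Matches to the metal response element core around the RefSeq starts of the members and of Mt4. The horizontal axis is the distance from the start in nt, triangles point along the matched strand, and colour gives the form; Mt2 carries 4 matches, Mt1 and Slc30a10 carry 3 each, and the windows of Mtf1 and Slc39a10 carry 0.

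Levels are given in TPM, transcript abundance scaled to length and library total. Genes can be compared on this scale as far as the annotated lengths hold. The annotated leaders of Mt1 and Mt2 hold the letters TATAAA, and how a shorter message would change their levels was not tested. Library totals were 34039426 expected counts in replicate 1 and 44200838 in replicate 2 without spike-ins. Of the 10 members, 9 reached 1 TPM or more in both libraries. This level was reached by 28.4% of all genes in the tables. On marker lists, 12 of 12 hepatocyte and 12 of 12 erythroid markers reached 1 TPM in both libraries. So did 9 of 9 macrophage, 8 of 8 granulocyte and 10 of 10 endothelial and stellate markers. The limit therefore does not tell these cells apart. In whole liver, a difference in the number of cells of a type and one in RNA per cell cannot be told apart.

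Mt1 (ENSMUSG00000031765, chr8:94179082-94180327) was the most abundant member. Its level was 4812 TPM in replicate 1 and 5332 TPM in replicate 2, a mean of 5072 ± 368 (SD, n = 2). These values rested on 66094 and 98724 expected counts, and Mt1 ranked 16 among all genes and 12 among protein-coding genes. Mt1 thus stood among the most abundant messages of the tissue in both libraries. The protein-coding genes closest to it in level over both libraries were mt-Atp6, Apoa1 and Gpx1, at distances of 0.14, 0.27 and 0.28 on the log2(TPM + 1) scale.

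Mt2 (ENSMUSG00000031762, chr8:94172664-94173568), the neighbouring gene on the same strand, had 1046 TPM in replicate 1 and 1233 TPM in replicate 2. Its mean was 1139.7 ± 132 TPM (SD, n = 2), from 14894 and 23657 expected counts. It ranked 56 among all genes. Mt1 exceeded Mt2 by 4.60-fold in replicate 1 and by 4.32-fold in replicate 2, a ratio of 4.46 ± 0.194 (SD, n = 2). Among the genes closest to Mt2 in level were Eif5a and Tmsb4x, at distances of 0.18 and 0.24. In annotation M21, Mt2 shares 45.8% of its 50-base stretches with the antisense gene Gm45774. The largest shares of other members were 8.36% for Slc30a10, 8.01% for Slc30a1 and 7.55% for Mtf1. The deposited counts rest on annotation M4, and whether Gm45774 is in it was not checked here. Whether the counting used strand is not given in the sources used here.

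Mt3 (chr8:94152607-94154146) was listed at 0.218 and 0.114 TPM, from 3 and 2 expected counts. Both values were far under the 1 TPM limit. The ratio of counts scaled to the library total (CPM), replicate 2 over replicate 1, was 0.513 with a 95% exact interval of 0.0429 to 4.48, so no difference was detectable at this depth. Mt4, the metallothionein known from stratified epithelium and not a member, had 0.767 and 1.15 TPM from 7 and 14 counts. Within the family sum of 5859 and 6566 TPM, Mt1 held 81.7 ± 0.651% and Mt2 held 18.3 ± 0.65% (SD, n = 2). The family made up 0.621% of all TPM.

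Mtf1 (chr4:124802104-124849800) stood at 11.0 and 11.5 TPM, a mean of 11.2 ± 0.382 (SD, n = 2), from 676 and 917 counts. The level of Mt1 was 451 ± 17.4 times that of Mtf1 (SD, n = 2). Since most of the Mtf1 level lay in a retained-intron form, the ratio was 2214 ± 74.1 against its coding transcripts alone. Of the 5 MTF-1 target genes listed besides the metallothioneins and Slc30a1, all 5 reached 10 TPM in both libraries. That level was reached by 6197 of all 43346 genes. Fth1, the ferritin heavy chain, was the highest at 3391 and 3780 TPM. Hamp, the iron hormone hepcidin, was the lowest at 24.4 and 20.97 TPM. Ndrg1 had the largest difference between libraries, 61.0 and 44.3 TPM, a log2 ratio of -0.45.

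Among the importers, Slc39a8 (chr3:135825279-135888572), which carries zinc and manganese, was the highest member. It had 39.8 and 41.8 TPM, a mean of 40.8 ± 1.38 (SD, n = 2), from 4061 and 5746 counts. Slc39a4 (chr15:76612383-76617384), the zinc uptake transporter of intestine and yolk sac, had 32.2 TPM in replicate 1 and 24.4 TPM in replicate 2, a mean of 28.3 ± 5.55. The next importer in level was Slc39a14 (chr14:70303469-70351425), which takes up zinc, manganese and iron not bound to transferrin. It had 9.63 TPM in replicate 1 and 6.69 TPM in replicate 2, a mean of 8.16 ± 2.08, from 456 and 530 counts. Slc39a10 (chr1:46807544-46892852), a zinc importer of the plasma membrane, was the lowest importer among the members. Its levels were 2.48 and 2.89 TPM, a mean of 2.68 ± 0.293 (SD, n = 2).

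Of the exporters, Slc30a10 (chr1:185454848-185468762) had 13.1 and 12.0 TPM, a mean of 12.6 ± 0.762 (SD, n = 2). Slc30a1 (chr1:191906767-191913247) had 3.30 and 3.89 TPM, a mean of 3.60 ± 0.415 (SD, n = 2). The manganese exporter therefore exceeded the zinc exporter by 3.53 ± 0.62 times. Slc39a8 exceeded Slc30a1 by 11.4 ± 0.933 times and Slc30a10 by 3.25 ± 0.306 times.

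In the order of levels, Mt1, Mt2, Slc39a8, Slc39a4, Slc30a10, Mtf1, Slc39a14, Slc30a1, Slc39a10 and Mt3, the values of 0 of the 9 neighbouring pairs overlapped between libraries. With 2 values a gene this is a weak criterion. By a second measure, chosen after the values were seen, the gap between neighbours was smaller than the larger of their SDs in 3 pairs. These were Slc30a10 with Mtf1, Mtf1 with Slc39a14, and Slc30a1 with Slc39a10. Taken within each library, the ratio was 1.12 ± 0.106 for Slc30a10 over Mtf1 and 1.43 ± 0.412 for Mtf1 over Slc39a14. For Slc30a1 over Slc39a10 it was 1.34 ± 0.00827, as both gene levels rose in replicate 2. Short forms with 0 counts in replicate 1, Slc30a1-202 and Slc39a10-204, were part of these rises. The main forms moved in opposite directions, with Slc30a1-201 at 3.30 and 3.07 TPM and Slc39a10-201 at 2.27 and 2.43 TPM. The small SD of that ratio therefore does not measure the spread of the pair.

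**Figure D2:**
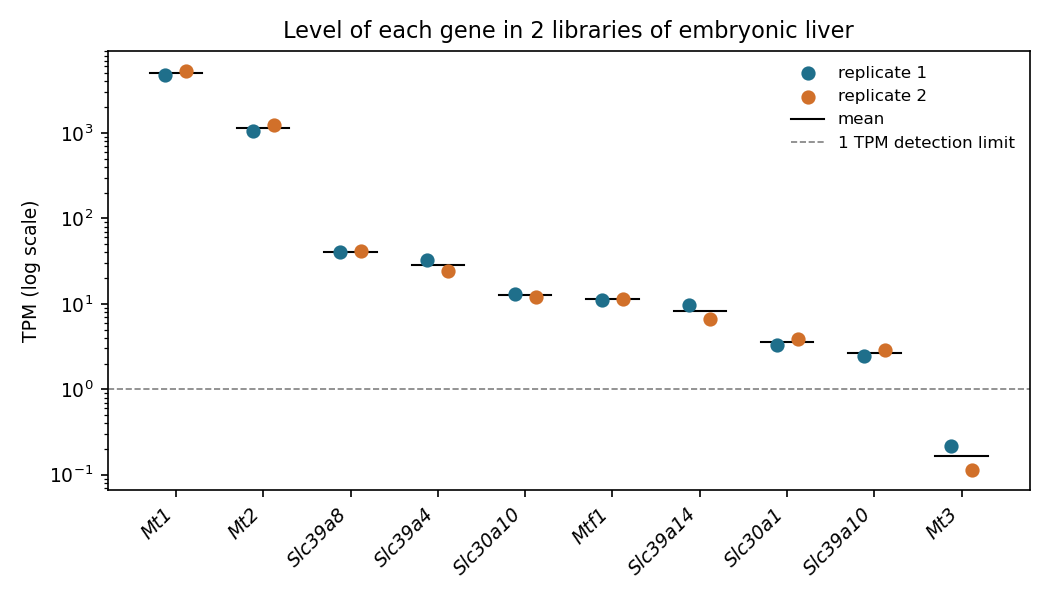
Level of each member in TPM on a log axis, with a point for each library, a line at the mean and a dashed line at the 1 TPM detection limit. Mt1 and Mt2 sit above 1000 TPM in both libraries, 7 members lie between 2.48 and 41.8 TPM, and Mt3 lies below the limit.

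The members were then placed in their whole families. Of 14 ZIP genes, 12 reached 1 TPM in both libraries, and of 10 ZnT genes, 7 did. Slc39a5 was the highest ZIP gene, at 73.0 and 56.7 TPM, and Slc30a9 was the highest ZnT gene, at 30.2 and 27.6 TPM. Neither is a member. Slc39a12 was the lowest ZIP gene, at 0.0207 and 0.0413 TPM. Slc30a8, the zinc transporter of insulin granules, had 0 counts in both libraries, so levels of up to 0.0881 and 0.0679 CPM (3 counts of each total) remain possible. The 4 member importers held 29.3 ± 0.964% of the summed ZIP level, and the 2 member exporters held 19.4 ± 0.27% of the summed ZnT level (SD, n = 2). Summed ZIP levels were 294 and 253 TPM and summed ZnT levels 85.5 and 81.3 TPM. Their ratio was 3.27 ± 0.236, or 1.71 ± 0.1 on the log2 scale (SD, n = 2). On CPM, which are not divided by length, the log2 ratio was 1.15. These are ratios of family sums and not of zinc import over export, since Slc30a10 is a manganese exporter and Slc39a8 also carries manganese.

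**Figure D3:**
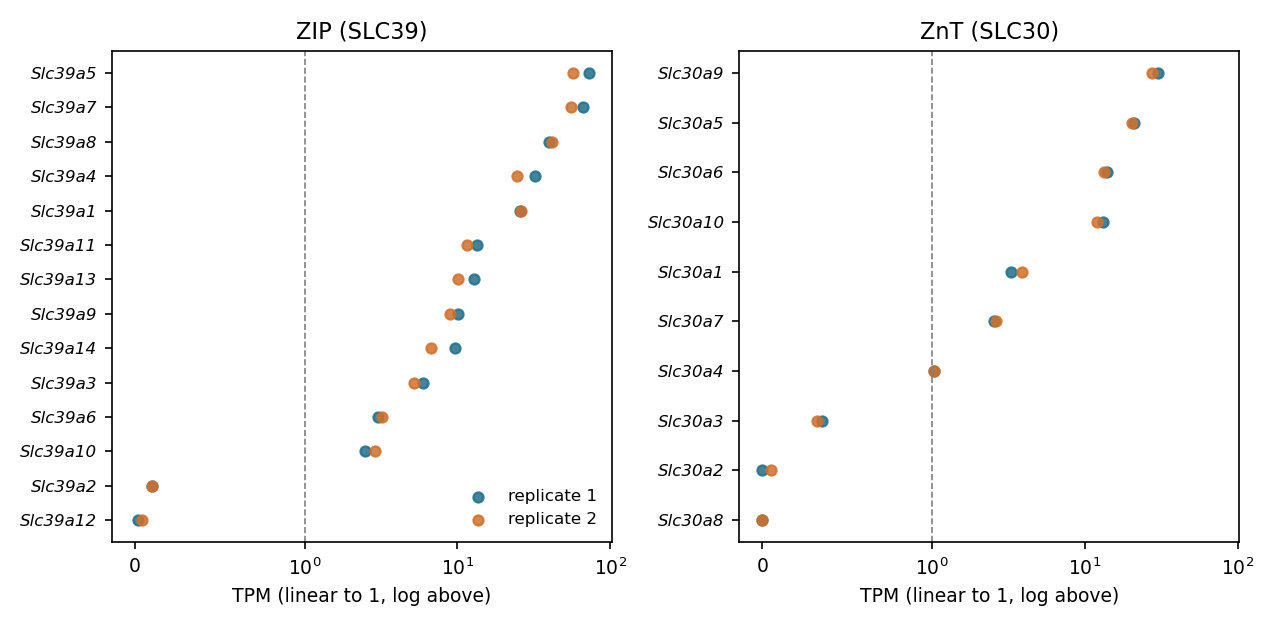
Levels of the 14 ZIP and 10 ZnT genes in TPM, one point for each library, on an axis that is linear up to 1 TPM and logarithmic above. The member importers Slc39a8 and Slc39a4 rank below Slc39a5 and Slc39a7, and the member exporter Slc30a10 ranks below Slc30a9, Slc30a5 and Slc30a6.

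Zinc-dependent enzymes were taken as a further list, of which 11 of 12 reached 1 TPM in both libraries. Car2, the carbonic anhydrase abundant in red cells, was the highest at 2210.4 and 2289 TPM. Adh1, a liver alcohol dehydrogenase, had the largest difference, 63.4 and 34.5 TPM, a log2 ratio of -0.86. Mep1b, a zinc metalloprotease, was the lowest at 0.0311 and 0.0206 TPM. The Mt1 level exceeded each of these enzymes in both libraries.

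Replicate 2 was next compared with replicate 1 by the log2 ratio of TPM + 1, a difference between 2 pools with no replicate check. The count took genes that reached 5 TPM in at least 1 library, which left 7 of the 10 members. Past 2-fold there were 0 of these 7, beside 0.672% of all 8781 genes counted. Past 1.5-fold there were also 0, beside 1.83%. A limit of 1.25-fold, chosen after the values were seen, was passed by 2 members, Slc39a4 and Slc39a14, beside 9.11% of all genes. Both were lower in replicate 2, and 5.45% of all genes passed that limit on the lower side.

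Slc39a4 was 0.39 lower on the log2 scale in replicate 2 (log2 ratio -0.39). Its CPM ratio was 0.785 with a 95% exact interval of 0.739 to 0.834. Slc39a14 had a log2 ratio of -0.47, but its CPM ratio of 0.895 had an interval of 0.788 to 1.02. For Slc39a14, the TPM and the count scale therefore gave different sizes. These intervals cover counting error only, since amplified reads without molecular identifiers are not independent molecules. Of the 8 other ZIP genes counted, 6 were also lower in replicate 2, with a median log2 ratio of -0.19. Over all genes counted, 60.8% were lower in replicate 2, with a median of -0.04.

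Mt1 and Mt2 had log2 ratios of 0.15 and 0.24, higher in replicate 2. Their CPM ratios were 1.15 (1.14 to 1.16) and 1.22 (1.20 to 1.25), with exact 95% intervals in parentheses. Short genes were higher in replicate 2 as a class: genes of 400 to 700 nt had a median log2 ratio of 0.17 over 443 genes, and 76.7% of them were higher. The median was -0.02 for 700 to 2000 nt, -0.06 for 2000 to 4000 nt and -0.08 for 4000 to 20000 nt. After the median of the 500 counted genes nearest in length was subtracted, Mt1 stood at -0.02 and Mt2 at 0.07. The part of length in the difference was not tested beyond this subtraction.

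Slc39a8 had a log2 ratio of 0.07, Mtf1 of 0.06 and Slc30a10 of -0.11, all small beside the 1.25-fold limit. The ratio of Slc30a10 turned to 0.02 with spike-in scaling, which moves all genes by 0.15. Slc30a1 and Slc39a10, which were under the 5 TPM filter, had log2 ratios of 0.18 and 0.16. On CPM the value for Slc30a1 was -0.01.

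Values of other markers also differed between the pools. The summed level of hepatocyte markers was 51694 TPM in replicate 1 and 41717 TPM in replicate 2, with 10 of the 11 markers counted lower in replicate 2, beside the 60.8% of all genes. Erythroid markers summed to 5261 and 4915 TPM, with 9 of 12 lower, and endothelial and stellate markers to 271 and 259 TPM, with 8 of 9 lower. Macrophage markers summed to 393 and 339.9 TPM, with 6 of 8 lower. Granulocyte markers summed to 5430.2 and 5880.2 TPM, with 5 of 8 higher, beside 39.2% of all genes counted. Pancreas markers, of which 4 of 12 reached 1 TPM in both libraries, summed to 64.4 and 17.7 TPM, with Ctrb1 at 30.1 and 2.73 TPM and Pnlip at 0 counts in both. Gut epithelium and yolk sac are tissues where Slc39a4 is known to act. Gut markers summed to 135 and 113 TPM, with 4 of 8 at 1 TPM in both libraries, and yolk sac endoderm markers to 10.6 and 7.80 TPM, with 3 of 7. Among granulocyte markers, S100a8, a short gene of 392 nt, had 2294 and 2805 TPM, while Ngp, Ltf and Camp were lower in replicate 2. Mt1 was higher in replicate 2, where the granulocyte sum was higher and hepatocyte and pancreas markers lower. Without the length trend, the log2 ratio of Mt1 was -0.02. Slc39a4 and Slc39a14 were lower in replicate 2. The part of these cells in the members' differences was not tested.

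**Figure D4:**
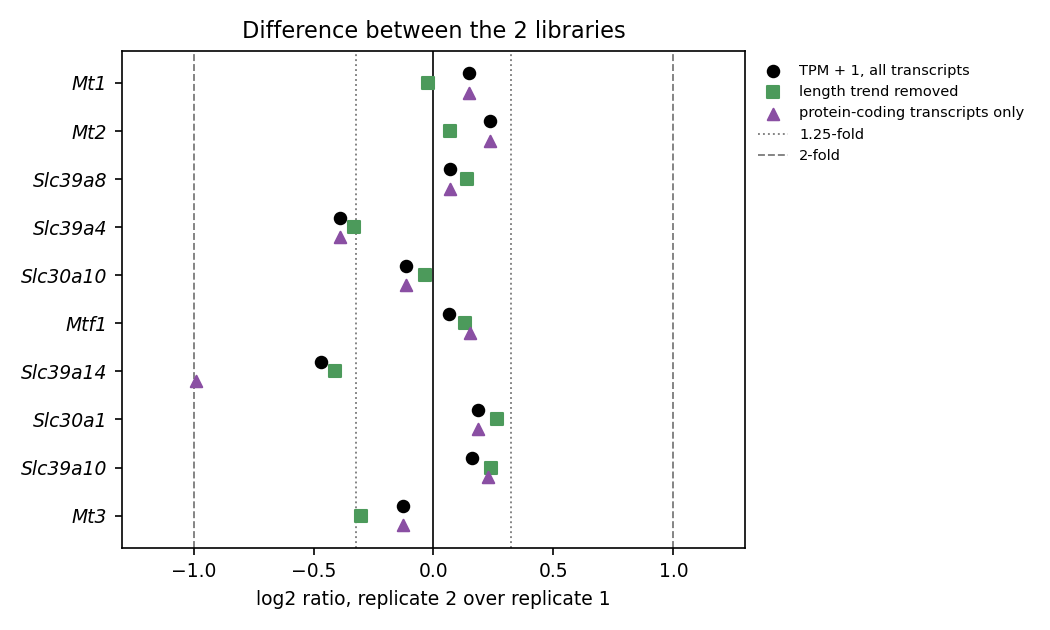
Log2 ratio of replicate 2 over replicate 1 for each member, as TPM + 1 over all transcripts (circles), after the length trend was removed (squares) and over protein-coding transcripts alone (triangles), with dotted lines at 1.25-fold and dashed lines at 2-fold. Slc39a4 and Slc39a14 lie beyond 1.25-fold on the lower side, and Slc39a14 reaches -0.99 over coding transcripts, also taken as TPM + 1.

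The deposited transcript tables were used to see which forms carried each level. Mt1, Mt2, Mt3, Slc39a4 and Slc30a10 had a single transcript in annotation M4, on which these values rest. Further forms that annotation M21 gives for Mt1, Mt3 and Slc39a4 were not counted. Slc39a8 was led by Slc39a8-206, with 75.7 ± 0.0675% of its TPM (SD, n = 2).

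Mtf1 was led by Mtf1-204, a retained-intron form of 781 nt, with 79.6 ± 1.46% of its TPM (SD, n = 2) but 28.0% of its expected counts. The coding form Mtf1-201, of 7631 nt, held 17.6% of TPM and 68.2% of counts. Coding transcripts of Mtf1 came to 2.12 and 2.47 TPM, a mean of 2.30 ± 0.243, against 11.2 TPM for the gene. Slc39a14 was led by Slc39a14-211, a retained-intron form of 1398 nt, with 42.2% of its TPM in replicate 1 and 55.1% in replicate 2. Of 11403 detected protein-coding genes, 204 (1.79%) were led by a retained-intron form in both libraries. Only 4730 of the 11403 have an annotated retained-intron form and so could be led by one.

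Coding transcripts of Slc39a14 came to 4.72 TPM in replicate 1 and 1.88 TPM in replicate 2. Slc39a14-206, of 374 nt, had 1.96 TPM from 16.8 counts in replicate 1 and 0 in replicate 2. Coding forms of 1 kb or longer differed less, at 1.64 and 1.45 TPM. Slc30a1 showed the same arrangement in the other direction: Slc30a1-202, of 677 nt, had 0 and 0.826 TPM, the latter from 20.0 counts, while Slc30a1-201 had 3.30 and 3.07 TPM. In Slc39a10, Slc39a10-204 had 0 and 0.403 TPM, the latter from 7.94 counts. The main form, Slc39a10-201, had 2.27 and 2.43 TPM. Over coding forms of 1 kb or longer, Slc30a1 had 3.18 ± 0.169 TPM, Slc39a10 2.35 ± 0.111, Mtf1 2.06 ± 0.0124 and Slc39a14 1.54 ± 0.135 (SD, n = 2). On that scale Mtf1 and Slc39a14 stood below Slc30a1 and Slc39a10, while by gene they stood above them.

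**Figure D5:**
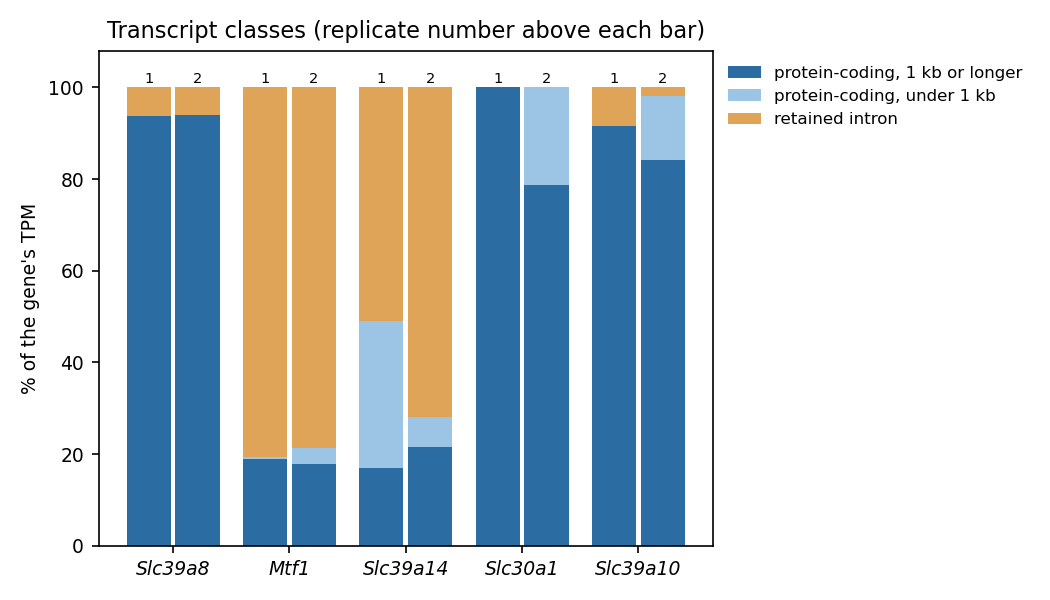
Share of each gene's TPM, in percent, in protein-coding transcripts of 1 kb or longer, in shorter protein-coding transcripts and in retained-intron transcripts, for the 5 members with several transcripts and each library. Retained-intron forms hold most of Mtf1 in both libraries, and 50.9% and 71.9% of Slc39a14.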

How the data were processed

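Total RNA of embryonic liver was sequenced in 2 libraries of 1 group. The deposited expected counts are the authors' estimated reads per gene or transcript, unscaled, and the authors' TPM and posterior mean TPM are abundances per length and library total. Deposited lengths and effective lengths are the authors' values in nt. Per the file headers the assembly is mm10 with annotation M4. The aligner and quantifier were not given in the sources used here. In all, 97 spike-ins and 26248 numeric entries were left out and TPM was rescaled. GENCODE M21 named 42462 genes.

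Members and lists were chosen with earlier results of these data known. Named genes were all members, the highest, lowest and most different gene of each list, and the 3 genes nearest Mt1 and Mt2, of which 1 is not reported here; others were chosen after their values were seen. No p-value was computed between libraries, with 1 on each side. Intervals are Clopper-Pearson. Scaling alternatives used edgeR 4.0.16 and DESeq2 1.42.0, and the fold rule was tested on simulated data. Python 3.11.15, pandas 2.3.3, SciPy 1.17.1 and R 4.3.3 were used. Protein sequences were not analysed here. Symbols of the list genes were matched for 149 of 149.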

Additional observations from a re-analysis of the deposited data

How the results depend on the processing

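No paired analysis was possible because the study has a single group. With 1 library on each side, no difference has a replicate check, and 2 values set each SD. The count of members past 2-fold was 0 under every alternative run except the 1.25-fold limit, chosen after the values were seen, which gave 2. With coding transcripts alone, Slc39a14 was just short of 2-fold, at a log2 ratio of -0.99 on TPM + 1. Its coding levels of 4.72 and 1.88 TPM were more than 2-fold apart without the added 1, so that 0 depends on it. The metallothionein sum was 2574 in CPM (expected counts scaled to the library total), which does not correct for length, and the log2 ratio of ZIP over ZnT was 1.15 in that unit. With each library left out in turn, the metallothionein sum ranged from 5859 to 6566 TPM, the log2 ratio of ZIP over ZnT from 1.64 to 1.78, and the number of members detected was 9 each time. All 10 members kept their place in the order with posterior mean TPM, annotated lengths or either library alone, 7 did with coding transcripts alone, and 6 did with coding transcripts of 1 kb or longer, the metallothioneins left as reported. At least 1 motif match was found in 6 members with either window and in 4 with TGCGCNC alone. For single members, the log2 ratio of Mt1 was -0.02 without the length trend, that of Slc30a10 was 0.02 with spike-in scaling, and that of Slc30a1 was -0.01 on CPM. The level of Mt3 rests on 3 and 2 counts and is limited by depth.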

Other observations

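Copper handling genes were detected throughout, with 9 of 9 at 1 TPM or more in both libraries. Cox17, the copper chaperone of mitochondria, was the highest at 187 and 236 TPM. Cp, the plasma copper protein ceruloplasmin, had the largest difference, 54.9 and 36.3 TPM, a log2 ratio of -0.58. Slc31a2 was the lowest, at 9.13 and 8.38 TPM. The 6 manganese and divalent metal genes were all lower in replicate 2, as were 60.8% of all genes counted, with a median log2 ratio of -0.12 beside -0.04 over all genes. Slc40a1, the iron exporter ferroportin, was the highest of them at 147 and 134 TPM, and Slc11a1 the lowest at 15.8 and 13.0 TPM.

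Of the 10 glucocorticoid and cytokine signalling genes, 8 reached 1 TPM in both libraries. Stat3 was the highest at 37.1 and 32.6 TPM. Hsd11b1, which regenerates active glucocorticoid, had the largest difference, 18.1 and 11.8 TPM. Osmr, a receptor of the cytokine oncostatin M, was the lowest at 0.311 and 0.237 TPM.

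In annotation M21, the leader of Mt1-201 before its coding sequence is 229 nt long, holds 4 matches to the metal response element core and has the letters TATAAA at base 129. The leader of Mt2-201 is 184 nt long, with 3 matches and TATAAA at base 90. That of Mt3-201 is 193 nt long, with 3 matches and TATAAA at base 107.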
